A study of Mus musculus with 6 samples.

Results

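The genes of the V(D)J recombinase and of the end-joining machinery that seals its breaks were followed through a mouse model of acute B-lymphoblastic leukemia. The 10 genes were named from the known reaction and found by symbol: Rag1, Rag2, Dntt, Lig4, Xrcc4, Xrcc5, Xrcc6, Dclre1c, Prkdc and Nhej1, which are 10 of the 33924 genes in the table of read counts. RNA was sequenced in 6 libraries that form 3 groups of 2. Leukemia 1 and leukemia 92 are primary leukemia cells from bone marrow with the genotype Mll-Af4/ N-RasG12D, and the third group is pro-B cells of wild-type mice, taken from marrow by sorting for B220+CD43+IgM-. The leukemias began as lineage-depleted, c-Kit+ and Sca1+ marrow cells of Mll-Af4 mice aged 6 to 8 weeks. These cells spent a night in lymphoid medium, were infected with the retrovirus MSCV-cre-IRES-TdTomato and then with an N-RasG12D retrovirus, and 250000 of them were injected into lethally irradiated mice (900 rads) with 200000 wild-type helper marrow cells. The hosts therefore also carried wild-type marrow. The labels give no sort of the leukemia cells before RNA was taken, no age for the pro-B donors, and no word on whether replicates are separate animals. A p-value therefore measures only the spread between these samples, which may be technical.

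V(D)J recombination assembles the exons that encode the variable parts of antibodies and T cell receptors from separate gene segments. RAG1 and RAG2 together cut the DNA beside a pair of segments and leave sealed hairpin coding ends. Artemis, the product of Dclre1c, opens the hairpins when activated by DNA-PKcs, the product of Prkdc, terminal deoxynucleotidyl transferase, the product of Dntt, adds untemplated nucleotides, and the Ku heterodimer, XRCC4, XLF and DNA ligase IV hold and seal the ends. Cutting is restricted to developing lymphocytes, and pro-B cells are the stage at which the immunoglobulin heavy chain locus is rearranged, whereas end joining itself is used by nearly all cells to repair double-strand breaks.

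The windows just upstream of the start sites of the recombinase genes, Dntt and both Ku subunits are shown because transcript levels of these genes are what the following comparisons turn on. Each is the 250 bases before the start site, read in the direction of transcription from the RefSeq annotation of GRCm38.p6, which is a later build than the mm9 named for the deposited table. Capitals mark the core letters that E proteins and Ets proteins are known to prefer: CANNTG, which reads the same on both strands in its fixed letters, and GGAA on either strand (TTCC where it lies on the other). Rag1 is taken from the minus strand at chr2:101649533-101649782, Rag2 from the plus strand at chr2:101624462-101624711, Dntt from the plus strand at chr19:41029025-41029274, Xrcc5 from the plus strand at chr1:72307171-72307420 and Xrcc6 from the plus strand at chr15:82016119-82016368.
Rag1 promoter window: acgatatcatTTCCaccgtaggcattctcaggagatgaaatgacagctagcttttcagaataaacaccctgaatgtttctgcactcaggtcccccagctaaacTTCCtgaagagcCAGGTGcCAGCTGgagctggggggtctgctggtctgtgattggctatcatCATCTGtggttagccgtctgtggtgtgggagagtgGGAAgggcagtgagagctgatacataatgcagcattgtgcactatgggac
Rag2 promoter window: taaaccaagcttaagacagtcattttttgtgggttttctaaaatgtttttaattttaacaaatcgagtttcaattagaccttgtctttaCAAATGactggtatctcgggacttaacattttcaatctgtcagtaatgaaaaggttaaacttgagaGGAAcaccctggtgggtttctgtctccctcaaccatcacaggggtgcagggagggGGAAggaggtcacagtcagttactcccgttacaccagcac
Dntt promoter window: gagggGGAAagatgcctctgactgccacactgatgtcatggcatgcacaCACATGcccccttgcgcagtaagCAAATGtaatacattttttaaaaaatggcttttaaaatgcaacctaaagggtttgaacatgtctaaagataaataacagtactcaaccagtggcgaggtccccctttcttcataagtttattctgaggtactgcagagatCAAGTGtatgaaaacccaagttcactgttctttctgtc
Xrcc5 promoter window: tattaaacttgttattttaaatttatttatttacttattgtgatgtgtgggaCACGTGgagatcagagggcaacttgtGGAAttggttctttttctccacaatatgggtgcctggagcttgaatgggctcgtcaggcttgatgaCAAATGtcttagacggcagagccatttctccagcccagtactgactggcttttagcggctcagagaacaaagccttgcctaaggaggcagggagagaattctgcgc
Xrcc6 promoter window: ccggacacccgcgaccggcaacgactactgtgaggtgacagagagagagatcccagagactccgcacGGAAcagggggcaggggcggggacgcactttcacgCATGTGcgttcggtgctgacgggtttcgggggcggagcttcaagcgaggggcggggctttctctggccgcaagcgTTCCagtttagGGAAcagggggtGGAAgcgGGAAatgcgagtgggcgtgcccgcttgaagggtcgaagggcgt
Such windows exist for 9 of the 10 genes and for 32851 start sites in all, of which 66.2% held CANNTG and 93.4% held GGAA. The first motif was found 3 times in Rag1, 3 times in Dntt, 2 times in Xrcc5 and 1 time each in Rag2 and Xrcc6. The windows differed more in CpG dinucleotides, with a median of 6 over all start sites. Rag1 held 3, Rag2 3, Dntt 2 and Xrcc5 5, whereas Xrcc6 held 25, Xrcc4 26 and the 2 start sites of Lig4 27 and 28. Dclre1c and Nhej1 lay between, with 8 and 9. The Xrcc6 window lies inside the gene as GENCODE M21 (GRCm38) gives it, which starts further upstream at chr15:81987835. All these matches describe the letters of the windows and nothing about binding.

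Gene counts per library summed to between 22153444 and 27444759, and 3 counts correspond to between 0.111 and 0.140 CPM. CPM here are counts per 1000000 counts of a library, with library sizes adjusted for composition by TMM factors. The cells were checked against marker lists. Summed early B markers stood at 5432 to 6617 CPM in the leukemia libraries and 4773 to 5323 CPM in the pro-B libraries. Of the 13 early B markers Cd93, Spn and Bst1 fell in the leukemia against pro-B comparison described next, and Cd79a rose. Spn encodes CD43, on which the pro-B cells were sorted. Mature B markers summed to 848 to 3958 CPM in leukemia and 990 to 1252 CPM in pro-B cells. Of 7 tested, 2 rose in the same comparison and 0 fell (0 at an unadjusted p under 0.05 in edgeR and 0 by DESeq2), with a median log2 change of 3.48. Those were Cr2, a complement receptor (78.1 ± 37.7 against 1.89 ± 0.53 CPM), and Cd83, an activation marker (147 ± 53.6 against 1.74 ± 0.84 CPM; SDs over 4 leukemia and 2 pro-B libraries). Replicate 2 of leukemia 1 stood apart: its 12 granulocyte markers summed to 16225 CPM, against 178 CPM in replicate 1 and 421 to 782 CPM in the other 4 libraries. The SD across genes of the log2 difference between replicates was 1.33 in leukemia 1, 0.40 in leukemia 92 and 0.35 in pro-B cells. The pro-B libraries held more transcripts of other lineages. Plasmacytoid dendritic cell markers summed to 2599 and 2963 CPM there against 223 to 352 CPM in leukemia, NK cell markers to 352 and 375 against 3.82 to 23.6 CPM, and T cell markers to 255.0 and 254.6 against 5.53 to 57.9 CPM. Erythroid markers summed to 66.1 and 152 CPM in pro-B cells and to 1.23 to 3.80 CPM in leukemia. Among defining genes, Siglech was at 1368 and 1544 CPM in the pro-B libraries, and the pre-T cell receptor gene Ptcra had 0 counts in all leukemia libraries and in 1 pro-B library, and 2 counts in the other. In the leukemia against pro-B comparison, 5 of 7 plasmacytoid dendritic, 5 of 7 NK, 6 of 7 tested erythroid and 1 of 8 tested T cell markers fell. Of all tested genes 10.7% fell. Some plasmacytoid dendritic cells are known to carry B220 and to transcribe Rag genes and Dntt. The part of these cells, and of the shift in B-lineage stage markers, in the differences described here was not tested, and in bulk RNA fewer cells of a type and less RNA per cell cannot be told apart.

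**Figure D1:**
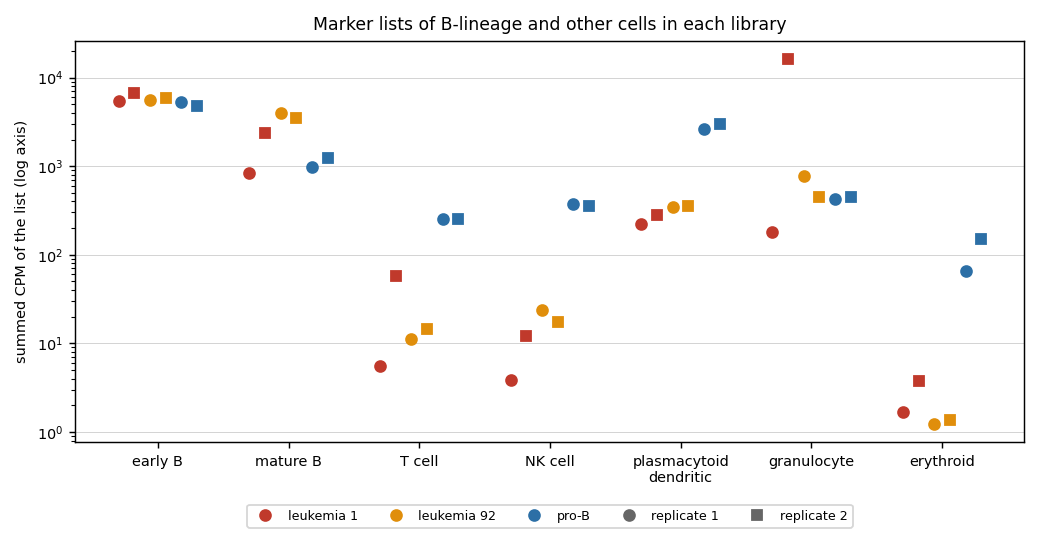
Summed CPM of each marker list (vertical log axis) in each library, with points coloured by group. Early B markers lie slightly higher in all 4 leukemia libraries, mature B markers range from 848 to 3958 CPM in leukemia around 990 and 1252 CPM in pro-B cells, the granulocyte list reaches 16225 CPM in replicate 2 of leukemia 1 alone, and the plasmacytoid dendritic, NK, T and erythroid lists are higher in both pro-B libraries.

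The first comparison asked how leukemia cells differ from wild-type pro-B cells. Counts of the 2 libraries of each leukemia were summed, so that 2 leukemias were set against 2 pro-B libraries, and log2 changes are leukemia minus pro-B, each with its standard error (SE). In edgeR's quasi-likelihood test with Benjamini-Hochberg adjustment over 15280 genes, 5 of the 10 genes fell at an adjusted p under 0.05 (Rag2, Dntt, Lig4, Xrcc5 and Prkdc), 0 rose (0 at an unadjusted p under 0.05 and 0 by DESeq2) and 5 did not pass. Of all tested genes 10.7% fell, 20.2% passed in either direction and 38.8% had an unadjusted p under 0.05, as did 6 of the 10. DESeq2 called 6 of the 10 genes lower, Rag1 added, and 15.9% of all tested genes. The median log2 change of the 10 genes was −1.85, against 0.02 over all tested genes. All 4 leukemia libraries lay below both pro-B libraries for 7 of the 10 genes, which held for 27.3% of all tested genes, and for 0 of the 10 above both, which held for 23.4%. The other 3, Xrcc6, Dclre1c and Nhej1, overlapped. The genes that fell come from several steps of the reaction: cutting (Rag2), end processing (Dntt and Prkdc), end binding (Xrcc5) and ligation (Lig4).

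**Figure D2:**
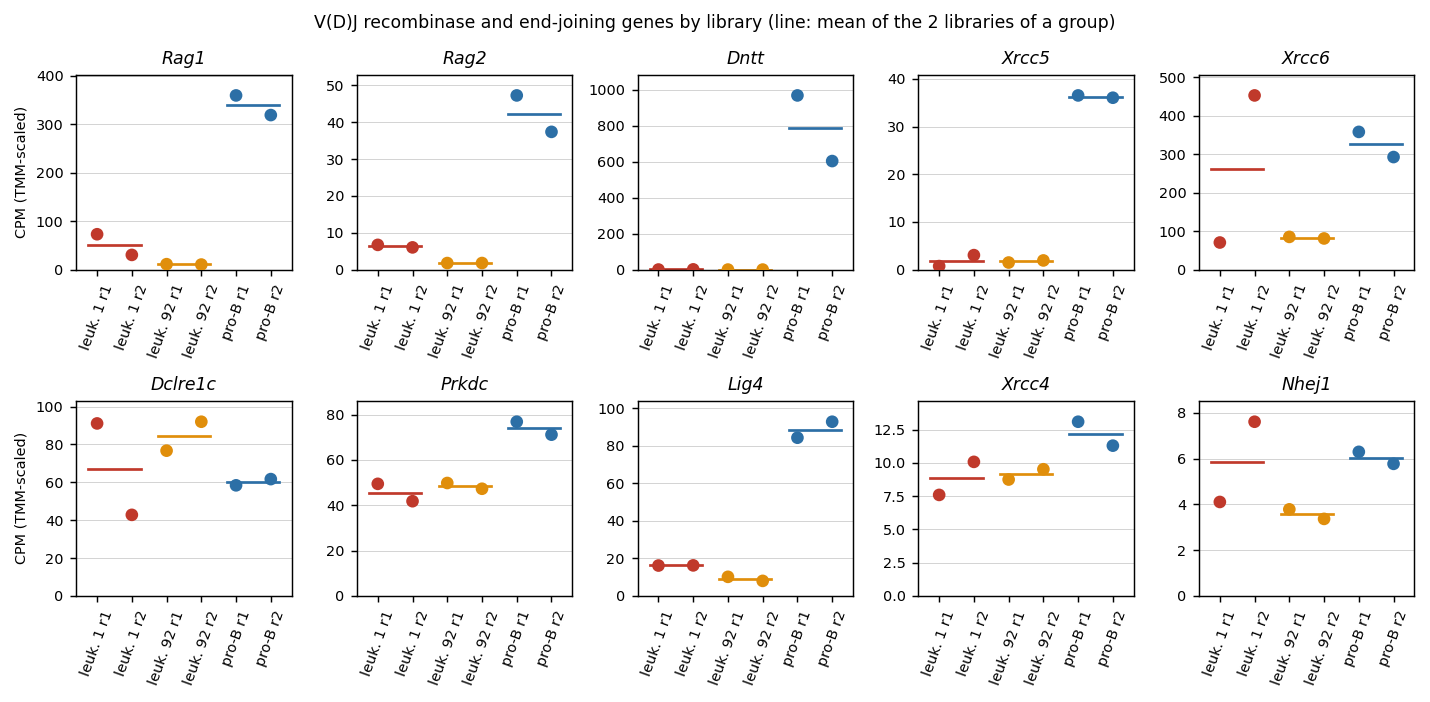
CPM (vertical axis, TMM-scaled, from 0) of each of the 10 genes in the 6 libraries, with points coloured by group and a line at each group's mean of 2 libraries. Rag1, Rag2, Dntt, Lig4, Xrcc5 and Prkdc stand higher in both pro-B libraries than in any leukemia library, and Xrcc6 is at 453 CPM in replicate 2 of leukemia 1 against 70.4 to 85.0 CPM in the other leukemia libraries.

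The recombinase subunits had lower values in every leukemia library. Rag1, the catalytic subunit, was at 73.0 and 30.3 CPM in the replicates of leukemia 1, 11.1 and 10.4 CPM in leukemia 92, and 360 and 319 CPM in pro-B cells. Every leukemia library lay below both pro-B libraries, leukemia 92 lowest, and the 2 leukemia 1 libraries differed 2.41-fold from each other. The means were 31.2 ± 29.3 CPM (SD, n = 4 libraries of 2 leukemias) and 339 ± 28.7 CPM (SD, n = 2), a 10.9-fold difference. Rag1 did not pass the main edgeR test (log2 change −3.48, SE 0.81, adjusted p = 0.056). It passed in DESeq2 (adjusted p = 1.0e-06), in the edgeR fit of all 6 libraries by group (−3.85, adjusted p = 0.0034) and without replicate 1 of leukemia 1 (−4.04, edgeR adjusted p = 0.037). Without replicate 2 of that leukemia it did not (−3.05, edgeR adjusted p = 0.11). The fit by group counted the 2 libraries of a leukemia as separate samples, so its p-values leave out the spread between leukemias. In that fit 4712 of 14979 genes passed, against 3089 of 15280 in the main test.

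Rag2, the regulatory subunit that tethers the complex to active chromatin, had 6.70 and 6.02 CPM in the leukemia 1 libraries, 1.77 and 1.78 CPM in those of leukemia 92, and 47.3 and 37.4 CPM in pro-B cells. The 3 groups did not overlap, and each pair of leukemia replicates was tight. Means were 4.07 ± 2.67 CPM over the 4 leukemia libraries (SD) and 42.3 ± 6.99 CPM over both pro-B libraries (SD, n = 2). Rag2 fell, with a log2 change of −3.39 and an SE of 0.67 (edgeR adjusted p = 0.042). The call was lost without replicate 1 of leukemia 1, where the log2 change was −3.44 and the edgeR adjusted p = 0.055. Per kilobase of the longest principal transcript in GENCODE M21, the CPM of Rag1 exceeded that of Rag2 in every library, 5.64-fold and 2.61-fold in leukemia 1, 3.27-fold and 3.03-fold in leukemia 92, and 3.94-fold and 4.42-fold in pro-B cells. The level ratio of the 2 subunits in pro-B cells thus lay inside the range of the leukemia libraries, while both levels were lower in leukemia.

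Dntt showed the largest difference of the 10. This gene encodes the template-independent polymerase that diversifies junctions, and it had 6 and 30 counts in leukemia 1, 1 and 0 counts in leukemia 92, and 26188 and 15497 counts in pro-B cells. On the CPM scale these are 0.244 and 1.11, 0.0411 and 0, and 969 and 604. Both leukemia 92 libraries lay at or under the level of 3 counts, replicates 1 and 2 of leukemia 1 were above it, replicate 2 clearly so, and pro-B cells were higher by orders of magnitude. Scaled to library size, the summed counts were 1136-fold higher in pro-B cells than in leukemia 1 (exact 95% interval 821 to 1623, counting error only). The ratio was 3247-fold without replicate 2 of leukemia 1 (1492 to 8848) and 714-fold without replicate 1 (500.3 to 1059), so the libraries differed by more than counting error. Against leukemia 92, with 1 count in all, the ratio was 36201-fold with an exact 95% interval from 6497 to 1429894. Dntt fell in the edgeR test (log2 change −11.05, SE 1.23, adjusted p = 0.017), a fitted value that depends on the prior count. With leukemia 1 alone against pro-B cells the edgeR adjusted p was 0.054, in a fit with the spread of the pro-B pair only, where 9335 of 15191 genes passed. Per kilobase, Dntt exceeded Rag1 in CPM 9.14-fold and 6.42-fold in the pro-B libraries, whereas in leukemia its level was 0 to 0.124 times that of Rag1. The order of these genes was thus reversed between the cell types.

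The other end-processing genes differed less. Prkdc, the kinase that activates Artemis, had 49.4 and 41.8 CPM in the leukemia 1 libraries, 49.8 and 47.3 CPM in those of leukemia 92, and 76.9 and 71.1 CPM in pro-B cells. The leukemias were alike and both lay below the pro-B libraries. Prkdc fell, with a log2 change of −0.64 and an SE of 0.13 (edgeR adjusted p = 0.043), 1.57-fold between means, and the call was lost without replicate 1 (0.061) or replicate 2 (0.069) of leukemia 1 and without replicate 2 of leukemia 92 (0.05001, all edgeR adjusted p). Dclre1c, which encodes the hairpin-opening nuclease Artemis, had 91.1 and 42.8 CPM in the leukemia 1 libraries, 76.7 and 92 CPM in those of leukemia 92, and 58.4 and 61.7 CPM in pro-B cells. Only replicate 2 of leukemia 1 lay below pro-B cells, and the difference did not pass (log2 change 0.33, SE 0.19, edgeR adjusted p = 0.28).

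The subunits of Ku, the ring that slides onto broken ends, gave different results. Xrcc5, encoding Ku80, had 0.731 and 3.03 CPM in the leukemia 1 libraries, 1.48 and 1.92 CPM in those of leukemia 92, and 36.5 and 36.1 CPM in pro-B cells. All 4 leukemia libraries lay far below the pro-B libraries, which were nearly equal. The raw counts were 18, 82, 36 and 41 against 987 and 925, so that the low values rest on few reads but lie above the level of 3 counts. Means were 1.79 ± 0.96 CPM (SD, n = 4 libraries) and 36.3 ± 0.34 CPM (SD, n = 2), a 20.3-fold difference, and Xrcc5 fell, with a log2 change of −4.32 and an SE of 0.19 (edgeR adjusted p = 0.0065). By p-value it ranked 38 of the 15280 genes tested. The change was −4.26 with leukemia 1 alone and −4.40 with leukemia 92 alone, and −3.93 and −4.86 without replicate 1 or replicate 2 of leukemia 1.

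Xrcc6, encoding Ku70, had 70.4 and 453 CPM in the leukemia 1 libraries, 85.0 and 81.0 CPM in those of leukemia 92, and 358 and 293 CPM in pro-B cells. Replicate 2 of leukemia 1 lay above both pro-B libraries, and the other 3 leukemia libraries lay well below them. That replicate was 6.44-fold above replicate 1, and of 14979 genes 5.45% were at least as much higher in replicate 2 and 6.1% differed by at least as much in either direction. The 6.44-fold gap went with the granulocyte markers, which are higher in the same library (S100a8 at 3609 against 44.9 CPM), and their part in the result was not tested. Xrcc6 did not pass (log2 change −0.89, SE 0.58, edgeR adjusted p = 0.33). The value rested on leukemia 1: it was −2.08 without its replicate 2 (edgeR adjusted p = 0.016) and −0.27 without its replicate 1 (edgeR adjusted p = 0.85). Leukemia 92 alone gave a log2 change of −1.95. In CPM per kilobase Xrcc6 exceeded Xrcc5 7.60-fold and 6.30-fold in pro-B cells, 44.6-fold and 32.8-fold in leukemia 92, and 74.6-fold and 116-fold in leukemia 1. The 2 subunits are known to depend on each other for protein stability, which transcript counts do not measure.

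The ligation complex changed at the ligase. Lig4, the ligase of end joining, had 16.2 and 16.3 CPM in the leukemia 1 libraries, 10.2 and 7.99 CPM in those of leukemia 92, and 84.3 and 92.9 CPM in pro-B cells. The groups did not overlap and replicates were close. Means were 12.6 ± 4.22 CPM (SD, n = 4 libraries) and 88.6 ± 6.03 CPM (SD, n = 2), a 7.01-fold difference, and Lig4 fell, with a log2 change of −2.81 and an SE of 0.31 (edgeR adjusted p = 0.017). Xrcc4, the partner that stabilises the ligase, had 7.60 and 10.1 CPM in the leukemia 1 libraries, 8.75 and 9.53 CPM in those of leukemia 92, and 13.1 and 11.3 CPM in pro-B cells. All 4 leukemia libraries lay below both pro-B libraries by a small margin, which did not pass (log2 change −0.43, SE 0.22, edgeR adjusted p = 0.24). Nhej1, encoding the bridging factor XLF, had 4.10 and 7.61 CPM in the leukemia 1 libraries, 3.78 and 3.36 CPM in those of leukemia 92, and 6.29 and 5.77 CPM in pro-B cells, and did not pass either (log2 change −0.34, SE 0.35, edgeR adjusted p = 0.52). In CPM per kilobase Lig4 was above Xrcc4 in pro-B cells, 1.97-fold and 2.52-fold, and below it in all 4 leukemia libraries, at 0.652, 0.494, 0.355 and 0.257 times its level.

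Leaving out either pro-B library ended every call in this comparison, of these genes and of all others. With 1 library for pro-B cells, these fits had the spread between the leukemias only. Why the calls were lost was not tested. The signs of all 10 genes were the same in each of the 13 alternative fits.

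**Figure D3:**
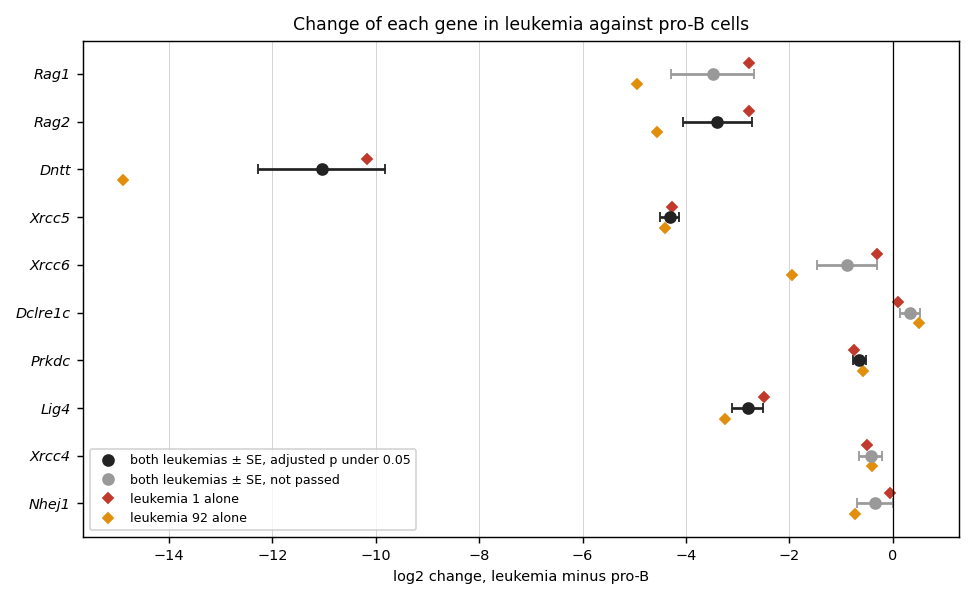
Log2 change of each of the 10 genes in leukemia against pro-B cells (horizontal axis) with bars of 1 SE, and beside it the values with each leukemia alone. Dntt lies furthest to the left at −11.05, Xrcc5 follows at −4.32, and Dclre1c alone lies to the right of 0 at 0.33.

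The second comparison set the leukemias against each other, with all 6 libraries in 1 fit and log2 changes as leukemia 92 minus leukemia 1. Rag2 was lower in leukemia 92, and no other gene of the 10 passed. Of 14979 tested genes 1.27% fell and 1.82% rose, 3.09% together, and 25.1% had an unadjusted p under 0.05, as did 4 of the 10. Rag2 fell by 1.84 (SE 0.20, edgeR adjusted p = 0.030), from a mean of 6.36 ± 0.48 CPM in leukemia 1 to 1.77 ± 0.01 CPM in leukemia 92 (SD, n = 2 each). Rag1 was at −2.26 (SE 0.44, edgeR adjusted p = 0.068), Lig4 at −0.84 (SE 0.16, edgeR adjusted p = 0.067) and Dntt at −4.69 (SE 1.41, edgeR adjusted p = 0.13), on 36 counts against 1. Both leukemia 92 libraries lay below both leukemia 1 libraries for these 4 genes and Nhej1, 5 of 10, and 25.8% of all tested genes did so. DESeq2 called 4 of the 10 genes lower (Rag1, Rag2, Dntt and Lig4), where it called 8.98% of all tested genes. The Rag2 call was lost without either leukemia 92 library (edgeR adjusted p = 0.39 and 0.31), without either pro-B library (0.19 each), and in a fit of the 4 leukemia libraries only (0.17).

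Xrcc5 did not differ detectably between the leukemias, and its sign held in only 8 of 11 alternative fits. Its log2 change was −0.16 in the main fit (SE 0.65, edgeR adjusted p = 0.91). It was −0.83 without replicate 1 of leukemia 1 and 1.20 without replicate 2 (edgeR adjusted p = 0.010 and 0.0068, in fits where 7975 of 15778 and 8133 of 15488 genes passed). Xrcc6 was at −1.66 (SE 0.84, edgeR adjusted p = 0.29), with −2.44 without replicate 1 of leukemia 1 and 0.24 without replicate 2. Dclre1c, at 0.33 (SE 0.37, edgeR adjusted p = 0.61), gave 0.99 and −0.11 in the same order. The differences of both Ku genes and Artemis between leukemias thus depended on which library stood for leukemia 1. Both comparisons contain leukemia libraries in common, so their values are not independent.

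Around the 10 genes stand further parts of the pathway. The accessory factors of end joining include polymerases, helicases and shieldin subunits. Of 12 tested, 1 rose and 0 fell (2 fell at an unadjusted p under 0.05 in edgeR and 2 by DESeq2), with a median log2 change of −0.10. In all tested genes 9.54% rose. Of 10 genes of the break response 1 fell, beside 10.7% of all tested genes, and DESeq2 called 2 lower. It was Atm, from 90.4 ± 2.31 CPM (SD, n = 2) to 51.9 ± 13.4 CPM (SD, n = 4 libraries; log2 change −0.80, edgeR adjusted p = 0.023). The Atm call was lost without replicate 1 (0.067) or replicate 2 (0.099) of leukemia 1 and in the fit of 6 libraries by group (0.080, all edgeR adjusted p). Atm encodes the kinase that signals double-strand breaks, RAG breaks included. Of 8 genes of alternative end joining, the route used without Ku, 0 rose and 0 fell in edgeR, with 3 lower at an unadjusted p under 0.05 and 4 lower by DESeq2, and a median of −0.34. Among 6 protein partners of RAG, 1 fell: Hmgb1, which encodes a DNA-bending cofactor of cleavage, stood at 208 ± 62.6 CPM against 533 ± 25.4 CPM (log2 change −1.34, edgeR adjusted p = 0.013, and 0.056 without replicate 1 of leukemia 1).

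Among 17 transcription factors known to act at the Rag locus or in early B cells, 3 rose and 6 fell, beside 9.54% and 10.7% of all tested genes. The median log2 change of the 17 was −0.36. Those that rose were Sfpi1, which encodes PU.1 (172 ± 38.7 against 23.7 ± 2.93 CPM, log2 change 2.88, edgeR adjusted p = 0.013), Gfi1b, a repressor reported to act on the Rag locus (14.2 ± 2.82 against 3.64 ± 0.54 CPM, log2 change 1.98, edgeR adjusted p = 0.020), and Runx1 (261 ± 96.7 against 96.6 ± 3.83 CPM, log2 change 1.42, edgeR adjusted p = 0.016). Bach2, a repressor of the plasma cell program, fell most, from 311 ± 31.7 to 40.5 ± 18.6 CPM (log2 change −2.95, edgeR adjusted p = 0.014). Ikzf3, encoding Aiolos, fell from 169 ± 30.7 to 47.1 ± 10.3 CPM (log2 change −1.85, edgeR adjusted p = 0.015). Tcf3, encoding the E proteins E12 and E47, fell from 298 ± 10.6 to 148 ± 36.6 CPM (log2 change −0.998, edgeR adjusted p = 0.017, and 0.083 without replicate 1 of leukemia 1). The other 3 that fell, outside the rule for named genes, were Lef1 (−2.34), Myb (−1.14) and Tcf12 (−0.98). Pax5 (0.44, edgeR adjusted p = 0.062), Ebf1 (−0.23, edgeR adjusted p = 0.56) and Foxo1 (0.02, edgeR adjusted p = 0.97) did not pass. Gfi1 went the other way from Gfi1b, at −3.12, and did not pass either (edgeR adjusted p = 0.13). For the transcription factors all SDs are over 4 leukemia libraries and 2 pro-B libraries.

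Between the leukemias, 2 of the 17 factors fell in leukemia 92 and 0 rose (0 at an unadjusted p under 0.05 in edgeR and 0 by DESeq2). For comparison, 1.27% of all tested genes fell and 1.82% rose. Ets1 had 160 and 109 CPM in the leukemia 1 libraries, 14.4 and 19.4 CPM in those of leukemia 92, and 715 and 709 CPM in pro-B cells. The 3 groups were separate, in the same order as for Rag1 and Rag2. Ets1 fell by 2.99 between leukemias (edgeR adjusted p = 0.026) and was at −3.27 against pro-B cells, which did not pass (edgeR adjusted p = 0.10). Foxo1, which encodes an activator of Rag transcription, had 254 and 239 CPM in the leukemia 1 libraries, 117 and 118 CPM in those of leukemia 92, and 189 and 168 CPM in pro-B cells. The leukemias lay on either side of pro-B cells, and Foxo1 fell by 1.07 between them (edgeR adjusted p = 0.031). As for Rag2, the calls of Ets1 and Foxo1 were lost without either leukemia 92 library, without either pro-B library and in the fit of the 4 leukemia libraries, with edgeR adjusted p from 0.14 to 0.34 for Ets1 and from 0.16 to 0.42 for Foxo1. No gene passed in these fits, in which 1552 to 2366 genes had an unadjusted p under 0.05 in edgeR.

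**Figure D4:**
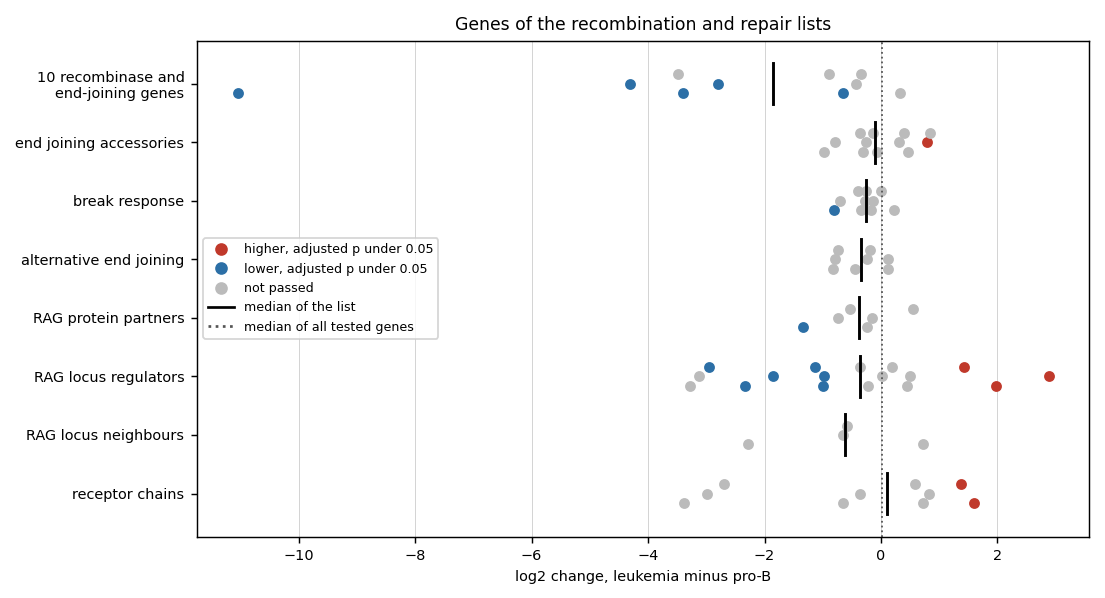
Log2 change in leukemia against pro-B cells (horizontal axis) of each tested gene of the 10 members and the 7 surrounding lists, 1 row a list, with red (higher) and blue (lower) points for genes past an adjusted p of 0.05 in edgeR, grey points for the others and a black line at the median of each list. The members lie furthest to the left with a median of −1.85, and the medians of the other lists run from −0.62 to 0.11.

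Position was compared next. Dclre1c lies on chromosome 2 with the Rag genes, Xrcc5 and Nhej1 on 1, Lig4 on 8, Xrcc4 on 13, Xrcc6 on 15, Prkdc on 16 and Dntt on 19. Rag1 and Rag2 lie next to each other in opposite orientation on chromosome 2, and in GENCODE M21 (GRCm38) the gene B230118H07Rik, also called Iftap, overlaps both. Neither the annotation nor the strand setting behind the counts is given in the sources used here, and reads of overlapping genes may have been split or lost. The 4 genes listed around the Rag locus gave 0 calls in edgeR, with 3 at an unadjusted p under 0.05 and 3 calls by DESeq2. B230118H07Rik was at −0.65 (edgeR adjusted p = 0.29), Traf6 at −0.59 (0.072), Commd9 at 0.71 (0.0501) and Prr5l at −2.28 (0.074). The next genes on each side of the 10 members were taken from the annotation after values had been seen. The table held 36 such neighbours, of which 25 were tested, 3 rose and 0 fell, with a median of −0.34. Of all tested genes 9.54% rose and 10.7% fell. Traf6, Prr5l, Zfp518a, Pecr, Smarcal1, Pmm1 and Pppde2 did not pass but were lower at an unadjusted p under 0.05 in edgeR. Atp6ap1l and Cebpd were higher at that level, which 38.8% of all tested genes met in either direction.

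The neighbours that rose were Vcan (log2 change 3.02), 1810031K17Rik (0.55) and Lrrc4c, a synaptic adhesion gene beyond the Rag locus. Lrrc4c had 2125 and 679 counts in leukemia 1, 1369 and 1163 in leukemia 92, and 1 and 2 in pro-B cells. All 4 leukemia libraries were high and both pro-B libraries were near the level of 3 counts. Its summed level was 962-fold higher in leukemia (exact 95% interval 329 to 4664, counting error only; edgeR adjusted p = 0.0065). The direction was opposite to that of Rag1 and Rag2. Pppde2, also called Desi1, overlaps Xrcc6 on the opposite strand and had 44.2 and 109 CPM in the leukemia 1 libraries, 46.3 and 45.1 CPM in those of leukemia 92, and 132 and 121 CPM in pro-B cells. Its replicate 2 of leukemia 1 was high as for Xrcc6, and without a stated strand setting reads of the overlap cannot be told apart. Of the neighbours of Xrcc5, none of which overlaps it, Pecr was at −1.19 (edgeR adjusted p = 0.076) and Smarcal1 at −0.34 (edgeR adjusted p = 0.12). Xrcc5 itself was at −4.32. For Pecr and Smarcal1 too, all 4 leukemia libraries lay below both pro-B libraries, which held for 27.3% of all tested genes.

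**Figure D5:**
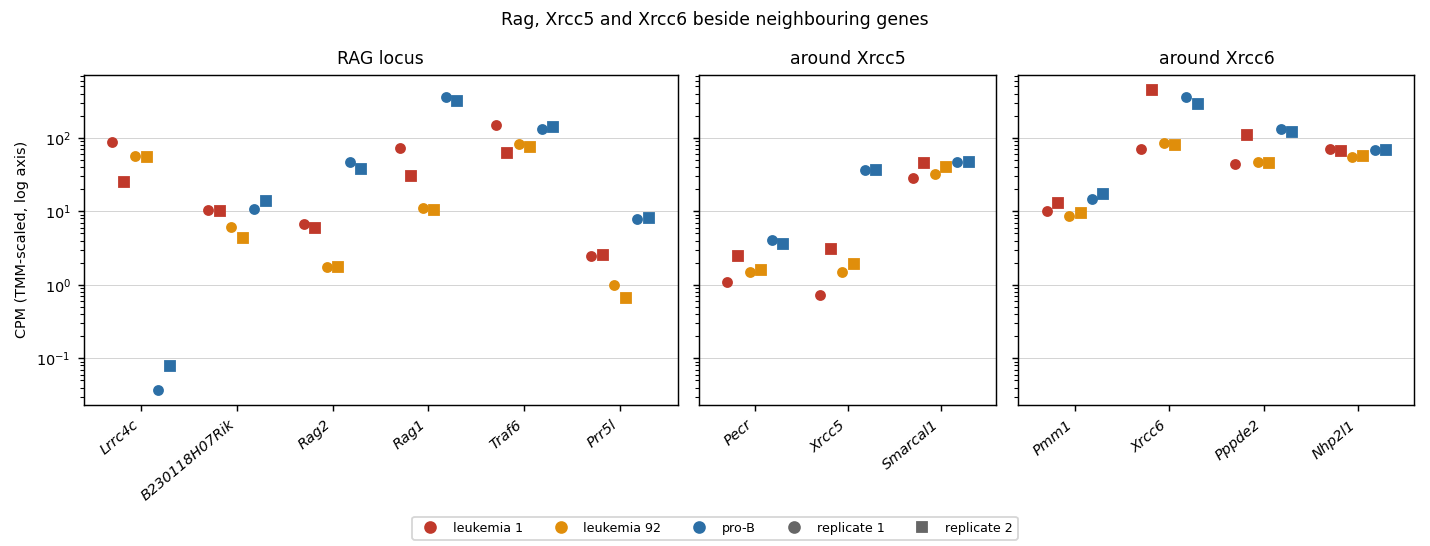
CPM on a log axis of Rag1, Rag2, Xrcc5, Xrcc6 and genes beside them in each library, with points coloured by group. Lrrc4c is at 0.037 and 0.078 CPM in the pro-B libraries and between 25.1 and 86.3 CPM in leukemia, and Xrcc5 drops to between 0.731 and 3.03 CPM in leukemia.

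The genes closest to Rag1, Rag2 and Dntt in pattern were sought by the Euclidean distance of centred log2 CPM over the 6 libraries among 12380 genes. Closest to Rag1 were Lair1 (distance 0.62), Rragb (0.70) and Kcnk5 (0.75). Lair1, an inhibitory collagen receptor of immune cells, was at a log2 change of −3.76 against pro-B cells. Closest to Rag2 were Mtap7 (0.55), Fam188b (0.58) and Pcp4l1 (0.63), and Mtap7, a microtubule-associated protein gene, was at −3.39. Dntt had no near neighbour on this measure: its closest were Cd209d (3.01), Ncr1 (3.44) and Klra4 (3.63). Ncr1 and Klra4 encode NK cell receptors, and Ncr1 is 1 of the 7 NK markers that were higher in pro-B libraries. The pattern spans 3 groups of 2 libraries and is a description. The genes were picked by their values in these same libraries, so a change shared with Rag1, Rag2 or Dntt follows from the choice.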

How the data were processed

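The values are deposited counts of reads, whole numbers for each library, for 33924 genes and 5 entries naming no gene, which held 34.0% to 39.6% of each library and were left out. Per the submitters' processing notes, STAR 2.4, HTSeq 0.6.1, DESeq2 and mm9 were used, without role or order. Annotation and strandedness were not given in the sources used here. Libraries were TruSeq RNA, from RNeasy RNA treated with DNase, per the labels.

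All 10 genes matched by symbol and passed the filter on low counts. edgeR 4.0.16 in R 4.3.3 was used (filterByExpr with a minimum count of 10, TMM, robust quasi-likelihood fit, Benjamini-Hochberg over all tested genes, call at adjusted p under 0.05). Leukemia was compared with pro-B cells on counts summed per leukemia, and leukemia 92 with leukemia 1 in a fit of 6 libraries and 3 groups. The SE of a log2 change comes from its F statistic. Fits were tested on simulated data. For leukemia against pro-B cells 10% of 2-fold and 77% of 4-fold changes were recovered, and between leukemias 1% and 57%. A gene that did not pass may thus still have changed. In the same simulations, with 14883 and 14542 genes tested, 15 and 8 unchanged genes were called. A call may therefore also be false. Alternatives were DESeq2 1.42.0, other size factors, no filter, other sample sets, a replicate block and leaving out each library.

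Named genes are the 10 members, up to 2 or 3 called genes of each of 7 pathway lists in each direction, and nearest patterns. Of 135 list entries 130 matched a symbol. Members and lists were chosen with earlier results of these data known. Other genes named as not passing, neighbours and single markers were picked after values were seen. Promoter windows and per-kilobase lengths come from RefSeq GRCm38.p6 and GENCODE M21. Single values of 2 list genes are not reported here.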

Additional observations from a re-analysis of the deposited data

Results flagged for a closer look

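For 3 genes the difference from pro-B cells was not the same in the 2 leukemias, by the direct edgeR test of leukemia 92 against leukemia 1. Rag2 stood 1.84 lower on the log2 scale in leukemia 92 (log2 change −1.84, edgeR adjusted p = 0.030), with both of its libraries below both of leukemia 1. Ets1, encoding a transcription factor of lymphoid cells, gave a log2 change of −2.99 (edgeR adjusted p = 0.026). Foxo1 gave −1.07 (edgeR adjusted p = 0.031), with leukemia 1 above and leukemia 92 below both pro-B libraries. All 3 calls were lost without either leukemia 92 library, without either pro-B library and in the fit of the 4 leukemia libraries only, where no gene passed in edgeR (1552 to 2366 genes had an unadjusted p under 0.05). Of all tested genes 3.09% passed this test in either direction.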

How the results depend on the processing

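In leukemia against pro-B cells, 1458 genes rose and 1631 fell. DESeq2 gave 2335 higher, and the 3-group fit of 6 libraries 2605 lower. Leukemia 92 alone gave 4893 higher and 5241 lower, with 1 of the 10 members higher and 8 lower. Leukemia 1 alone gave 4659 higher and 4676 lower. Each single leukemia was tested with the spread of the pro-B pair only. Leaving out 1 library gave 0 to 1544 higher, 0 to 1725 lower and 0 to 5 members lower, where 0 came from leaving out either pro-B library (in edgeR, 2645 and 2650 genes had an unadjusted p under 0.05). The share of rises among calls was 47.2%, and 36.5% without replicate 2 of leukemia 1. Between leukemias, 273 genes rose and 190 fell. DESeq2 gave 1322 higher, 1345 lower and 4 members lower. The 4 leukemia libraries alone gave 0 higher, 0 lower and 0 members lower in edgeR (unadjusted p under 0.05: 1284 higher, 1082 lower, 3 members). Leaving out 1 library gave 0 to 3909 higher, 0 to 4224 lower, 0 to 1 members higher and 0 to 6 members lower. Xrcc5, at −0.16, reversed to 1.20 without replicate 2 of leukemia 1 and was −0.83 without replicate 1. For other changes of call the cause was not tested. Over the named genes, 214 values kept sign and call, 11 gained and 48 lost the call against pro-B cells. Between leukemias the numbers were 101, 11 and 18, and 1 reversed. Dntt had too few counts for the fit of 4 libraries.

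Same-numbered replicates did not deviate together: correlations were −0.099, 0.076 and −0.026 for the 3 pairs of groups. The numbers thus showed no pairing, but a weak shared effect could go unseen beside the replicate SD of 1.33 in leukemia 1. With the number as a replicate block, leukemia against pro-B cells gave 1448 higher, 1925 lower and 6 members lower, and leukemia 92 against leukemia 1 gave 0 higher, 0 lower and 0 members lower in edgeR (unadjusted p under 0.05: 1583 higher, 1459 lower), so that Rag2, Ets1 and Foxo1 lost their calls (edgeR adjusted p = 0.10, 0.10 and 0.11).

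Depth limits Dntt most: at 0 to 30 counts per leukemia library its level there is known only within wide counting intervals.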

Other observations

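Chains of the pre-B and B cell receptor, some of them assembled by rearrangement, were counted in all libraries. Of 10 tested, 2 rose and 0 fell (3 fell at an unadjusted p under 0.05 in edgeR and 3 by DESeq2), with a median log2 change of 0.11. Of all tested genes 9.54% rose. Cd79a, the signalling chain of the B cell receptor, rose from 431 ± 26.8 CPM (SD, n = 2) to 1294 ± 204 CPM (SD, n = 4 libraries), a log2 change of 1.599 (edgeR adjusted p = 0.016). Vpreb3, a chaperone of the pre-B cell receptor, rose from 327 ± 20.3 to 840 ± 240 CPM (log2 change 1.37, edgeR adjusted p = 0.020), and its call was lost without replicate 1 of leukemia 1 (1.57, edgeR adjusted p = 0.0503). Ighm, the heavy chain of IgM, was at 2103 ± 635 CPM against 3335 ± 113 CPM and did not pass (log2 change −0.66, edgeR adjusted p = 0.066). Igkc, the kappa light chain constant region, had 1.22 and 193 CPM in the leukemia 1 libraries, 6.25 and 4.95 CPM in those of leukemia 92, and 344 and 495 CPM in pro-B cells. Replicate 2 of leukemia 1 stood far above the other leukemia libraries, and the difference did not pass (log2 change −2.996, edgeR adjusted p = 0.20). That library also held the granulocyte markers, whose part in its Igkc level was not tested.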
